A study of Mus musculus with 18 samples.

Results

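Ceramide kinase and 9 further enzymes of sphingolipid metabolism were followed in mouse mammary tumour cells that had lost *Kmt2c* or *Kmt2d*, genes for histone H3 lysine 4 methyltransferases. The 10 genes were found by symbol in both count tables (CERK, SPHK1, SPHK2, SGPP1, SGPL1, CERS2, CERS5, CERS6, SPTLC1 and SPTLC2), among 24333 symbols that the tables share, and are written below in the mouse style. *Cerk* was selected on its own counts in these libraries, because it was higher in 168FARN knockouts and lower in 67NR knockouts. Its levels are therefore described without a test, and the other 9 genes were tested.

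The study used a pair of non-metastatic lines derived from a mouse mammary tumour, 168FARN and 67NR. The 6 groups were, in each line, WT cells, cells without *Kmt2c* and cells without *Kmt2d* (KO), with 3 replicates a group and 18 RNA-seq libraries in all. WT cells of 168FARN carried a control sgRNA by the names of their columns, and those of 67NR are named WT only. The knockouts were made by transient transfection of Cas9 and sgRNAs against exon 1, and are sorted pools of cells, not clones, so each rests on 1 edited pool per line. The paper sequenced the edited regions, and its share of mutant reads was lowest in the *Kmt2c* pool of 67NR, where a sizeable part stayed unmutated. Its immunoblots showed less protein in the knockouts of both lines. Below, "without" and "loss of" name these pools. Both lines were grown in culture without treatment. The study calls its replicates biological, and took each collection time as a batch when drawing heatmaps, while its differential tests used genotype alone. The replicates are collections of the same pools, and p-values here measure the spread between those collections.

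Sphingolipids are membrane lipids built on a sphingoid base. Serine palmitoyltransferase makes that base, ceramide synthases join it to a fatty acid to give ceramide, and ceramide is then turned into sphingomyelin, glycosphingolipids, ceramide-1-phosphate or, through ceramidases, sphingosine. Ceramide kinase makes ceramide-1-phosphate, a lipid known for binding and activating cytosolic phospholipase A2, and sphingosine kinases make sphingosine-1-phosphate, a signal for migration and survival that is removed by a phosphatase or by a lyase.

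Sequences upstream of 4 genes are given because *Cerk*, *Cers6*, *Sgpp1* and *Sptlc1* are the genes whose mRNA the results turn on. Each is the 250 bases before a RefSeq start site (GRCm38.p6), read on the strand of the gene, and its mm9 position comes from an exact match to that genome. They lie at chr15:86016572-86016821 (minus strand) for *Cerk*, chr2:68699248-68699497 (plus) for *Cers6*, chr12:76836717-76836966 (minus) for *Sgpp1* and chr13:53472731-53472980 (minus) for *Sptlc1*. Capitals mark the motif CAGGTG, an E-box bound by Zeb and Snail family repressors, searched on both strands as CAGGTG and CACCTG.
Cerk: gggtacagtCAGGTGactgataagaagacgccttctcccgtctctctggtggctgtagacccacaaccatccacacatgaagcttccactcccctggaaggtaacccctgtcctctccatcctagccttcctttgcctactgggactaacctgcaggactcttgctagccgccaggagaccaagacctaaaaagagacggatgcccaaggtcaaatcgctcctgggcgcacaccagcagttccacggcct
Cers6: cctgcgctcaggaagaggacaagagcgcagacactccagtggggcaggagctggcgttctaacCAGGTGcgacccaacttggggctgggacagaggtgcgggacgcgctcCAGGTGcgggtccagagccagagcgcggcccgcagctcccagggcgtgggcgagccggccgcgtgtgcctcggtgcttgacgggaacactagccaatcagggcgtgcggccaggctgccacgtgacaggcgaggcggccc
Sgpp1: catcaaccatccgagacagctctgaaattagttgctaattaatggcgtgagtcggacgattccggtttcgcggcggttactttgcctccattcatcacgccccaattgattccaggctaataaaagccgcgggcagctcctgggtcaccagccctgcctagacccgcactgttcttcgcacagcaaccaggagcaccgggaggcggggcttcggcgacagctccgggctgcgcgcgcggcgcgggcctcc
Sptlc1: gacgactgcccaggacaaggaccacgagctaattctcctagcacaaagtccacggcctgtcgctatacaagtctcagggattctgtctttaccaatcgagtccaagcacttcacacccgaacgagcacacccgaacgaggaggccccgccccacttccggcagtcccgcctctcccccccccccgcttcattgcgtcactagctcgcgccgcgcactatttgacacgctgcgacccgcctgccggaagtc
The motif stands 241 bases before the start of *Cerk*, and 187 and 140 bases before that of *Cers6*. It is absent from the windows of *Sgpp1* and *Sptlc1*. Over all 10 genes it was found for 3 (*Cerk*, *Cers5* and *Cers6*), each with a single window. Counted by window, 3 of the 16 windows of the 10 genes hold it, which is near the 17.2% of all 32851 mouse windows of this length. The *Cerk* window holds 7 CG dinucleotides, against 23 in *Cers6*, 24 in *Sgpp1*, 22 in *Sptlc1* and a median of 6 over all windows. A match of letters is a description of the sequence and not evidence of binding.

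Reads counted on genes ran from 14359760 to 43427382 a library in 168FARN and from 40948529 to 79240801 in 67NR. Values are CPM, read counts scaled to library size by edgeR's TMM method within each line, and a change was called where log2 fold change exceeded 0.6 in size and the p adjusted over all genes was under 0.1. The exon 1 edits are not checked by mRNA level: in its own knockout *Kmt2c* was at 46.9 to 96.7 CPM in 168FARN (WT 44.7 to 113) and 85.5 to 95.7 in 67NR (WT 54.6 to 63.1), and *Kmt2d* at 136 to 296 CPM in 168FARN (WT 104 to 160.0) and 94.1 to 147 in 67NR (WT 83 to 112). Replicate 3 stood apart from replicates 1 and 2 in every group. Some calls against WT change with replicates 1 and 2 only. They are given both ways for the enzymes, the neighbours of *Cerk* and the further sphingolipid genes picked by the naming rule given below. Each knockout of a line is compared with the same 3 WT libraries.

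*Cerk* (chr15:85969558-86016571 in mm9, minus strand) was scarce in 168FARN WT cells, at 1.36, 1.07 and 0.627 CPM in replicates 1 to 3, the order used throughout. Loss of *Kmt2c* took it to 12.2, 9.74 and 5.95 CPM and loss of *Kmt2d* to 14.8, 13.5 and 5.89 CPM. All knockout libraries of 168FARN lay above all WT libraries, and the knockouts overlapped each other. In bulk RNA of a pool, more cells with the mRNA and more mRNA per cell cannot be told apart. The fitted log2 fold change was 3.19 (standard error 0.49) for *Kmt2c* and 3.48 (standard error 0.49) for *Kmt2d*, which are 9.13-fold and 11.2-fold. Within each group, replicate 3 was the lowest library, by 0.61 to 1.20 on the log2 scale against the mean of the others. A small constant was added to both CPM values before that ratio, which makes the gap smaller at low levels, most of all in WT.

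In 67NR the direction was the opposite. WT libraries held 11.2, 10.5 and 8.65 CPM of *Cerk*, *Kmt2c* knockouts 2.49, 2.25 and 1.5 CPM and *Kmt2d* knockouts 2.83, 3.03 and 2.15 CPM. Every knockout library of 67NR was below every WT library, and the ranges of the knockouts overlapped. *Cerk* fell by 2.27 (standard error 0.27) and 1.92 (standard error 0.27) on the log2 scale, so the WT level was 4.83 and 3.78 times that of the knockouts. These contrasts chose the gene, and no test is drawn from them. For scale, 0.359% and 0.286% of the 12253 genes tested in 168FARN were called for *Kmt2c* and *Kmt2d*, and 35.3% and 25.5% of 13662 in 67NR. The 168FARN shares depend on replicate 3: with replicates 1 and 2 only they were 14.5% and 11%.

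By group mean, *Cerk* ran from 11.4 ± 4.82 CPM (SD, n = 3) in 168FARN *Kmt2d* KO cells through 10.1 ± 1.3 in 67NR WT, 9.3 ± 3.15 in 168FARN *Kmt2c* KO, 2.67 ± 0.458 in 67NR *Kmt2d* KO and 2.08 ± 0.515 in 67NR *Kmt2c* KO to 1.02 ± 0.369 in 168FARN WT cells. The highest 3 groups overlapped, as did both 67NR knockouts, and the lines were scaled separately. In the fit of all 18 libraries, *Cerk* was higher in 67NR WT than in 168FARN WT cells by 3.31 on the log2 scale (standard error 0.41). Line and count table cannot be told apart in that difference. The 168FARN WT value rests on 104 reads over 3 libraries, the smallest count behind any group mean of the gene.

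**Figure D1:**
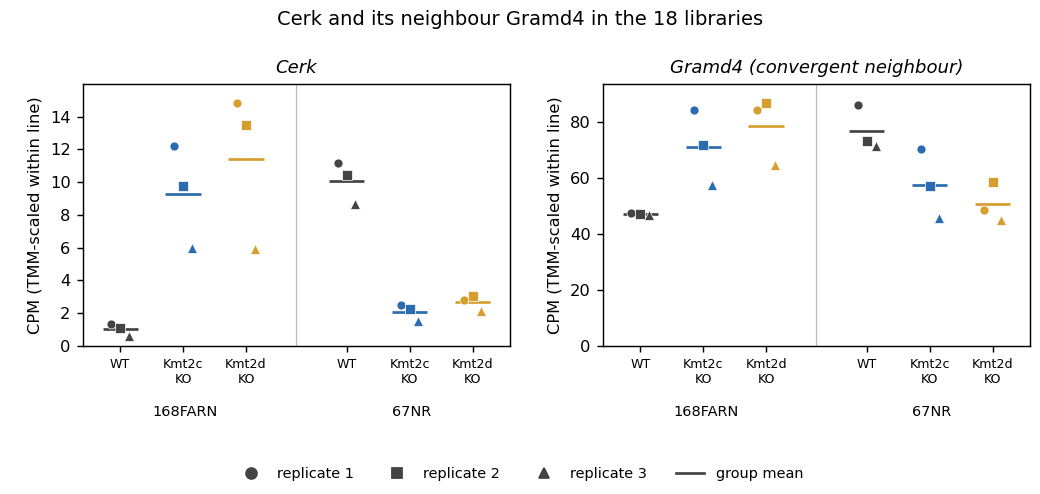
CPM of *Cerk* (left) and of its neighbour *Gramd4* (right) in each of the 18 libraries, with TMM scaling within each line. Points are libraries with the marker giving the replicate number, lines are group means of 3, and *Cerk* spans 0.627 to 1.36 CPM in 168FARN WT against 8.65 to 11.2 CPM in 67NR WT cells.

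The genes around *Cerk* were read to see whether its neighbourhood moved with it. *Gramd4*, which encodes a protein with a GRAM domain, ends 1494 bases from the 3′ end of *Cerk* on the opposite strand, and the gene models do not overlap. In 168FARN it was at 47.5, 47.1 and 46.8 CPM in the WT libraries, 84.4, 71.6 and 57.6 CPM after loss of *Kmt2c* and 84.4, 86.6 and 64.5 CPM after loss of *Kmt2d*, with no overlap between WT and knockouts. Its log2 fold changes there were 0.59 (standard error 0.19) and 0.74 (standard error 0.19), with an adjusted p = 0.521 and 0.328 from the edgeR quasi-likelihood test after Benjamini-Hochberg adjustment. Fitted with a replicate block, the *Kmt2d* value was called (log2 0.72, edgeR adjusted p = 0.00326) and that of *Kmt2c* was not (log2 0.57). With replicates 1 and 2 only, both were called, at 0.73 and 0.86 on the log2 scale (edgeR adjusted p = 0.000354 and 0.000139).

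In 67NR, *Gramd4* was at 86.1, 73.3 and 71.3 CPM in the WT libraries, 70.2, 57.2 and 45.5 CPM after loss of *Kmt2c* and 48.4, 58.4 and 44.8 CPM after loss of *Kmt2d*. The log2 fold changes were -0.42 and -0.60, and of them the one for *Kmt2d* was called (edgeR adjusted p = 0.0485), a call that 3 of 6 fits without 1 library lost. It was also lost with replicates 1 and 2 only, at -0.59. The difference between the lines in its response was called for both knockouts, at -1.09 (standard error 0.27, edgeR adjusted p = 0.0137) and -1.40 (standard error 0.27, edgeR adjusted p = 0.00363). *Celsr1*, a cadherin 105351 bases away, fell in 67NR by 3.46 and 3.49 on the log2 scale (edgeR adjusted p = 0.00324 and 0.00504). It was at 4.69, 4.83 and 15.6 CPM in the 67NR WT libraries, so replicate 3 weighs most in their mean. The knockout libraries held at most 1.28 CPM (*Kmt2c*) and 0.974 CPM (*Kmt2d*). In 168FARN it was called with replicates 1 and 2 only, for *Kmt2d*, at 0.94. *Trmu* and *Tbc1d22a*, the other protein-coding genes within 250000 bases, had log2 fold changes of at most 0.20 in size in the 4 comparisons with WT and were not called. Whether counts were taken by strand is not given in the sources used here.

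Among the other 9 enzymes, 0 were called in either knockout of 168FARN, by edgeR, by DESeq2, with the replicate block or without replicate 3, and 0 had an unadjusted p under 0.05. Of all 12253 genes, 725 (*Kmt2c*) and 647 (*Kmt2d*) had such a p. With the block 7.23% and 5.9% of all genes were called there, and with replicates 1 and 2 only 14.5% and 11%. In 67NR, 3 were called for *Kmt2c* (*Sgpp1* and *Cers6* higher, *Sptlc1* lower) and 4 for *Kmt2d* (the same 3 and *Sphk1*, higher). As given above, 35.3% and 25.5% of all genes tested in 67NR were called, so 3 and 4 of 9 are not far from that background. Groups that did not overlap WT numbered 1 of 9 in each 168FARN knockout, where 11% and 10.6% of all genes did not overlap, and 5 of 9 in each 67NR knockout, where 47.3% and 38.1% did not. Median log2 fold changes over the 9 were -0.09 and 0.13 in 168FARN and 0.13 and 0.22 in 67NR for *Kmt2c* and *Kmt2d*, against 0.01, 0.01, -0.02 and -0.02 over all genes tested.

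**Figure D2:**
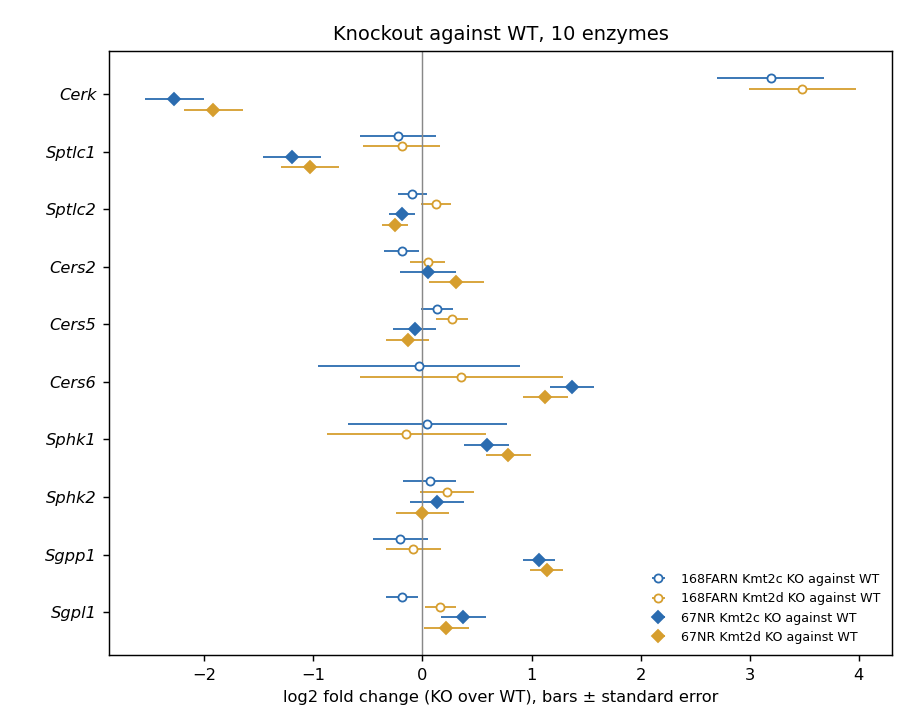
Log2 fold changes of the 10 enzymes (x axis, knockout over WT) with standard errors in the 4 comparisons. Open circles are 168FARN and filled diamonds 67NR, blue is *Kmt2c* KO and gold *Kmt2d* KO. *Cerk* is at 3.19 and 3.48 in 168FARN and at -2.27 and -1.92 in 67NR, and of the others *Sptlc1* is the lowest and *Cers6* or *Sgpp1* the highest in 67NR.

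*Sptlc1* encodes the subunit that serine palmitoyltransferase needs for its activity, the entry to the pathway. In 67NR it was at 71.8, 76.6 and 36 CPM in the WT libraries, 28.8, 28 and 23.7 CPM after loss of *Kmt2c* and 33.6, 30.6 and 26.1 CPM after loss of *Kmt2d*. Both knockouts lay below WT in every library, with WT replicate 3 nearest to them. It fell by 1.20 (standard error 0.27, edgeR adjusted p = 0.00771) and 1.03 (standard error 0.27, edgeR adjusted p = 0.0226) on the log2 scale, and by 1.39 and 1.22 without replicate 3. In 168FARN *Sptlc1* was at 17, 21.6 and 29.6 CPM in the WT libraries, 16.2, 15.3 and 26.9 CPM after loss of *Kmt2c* and 14.5, 16.7 and 28.6 CPM after loss of *Kmt2d*, where the groups overlapped and replicate 3 was highest in each. Within each replicate number both knockouts were below WT there, and neither was called with the block, at -0.24 and -0.22 (edgeR adjusted p = 0.245 and 0.327).

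*Sptlc2*, the catalytic partner of *Sptlc1*, was level by comparison, at 78.6 to 100.1 CPM over the 168FARN libraries and 77 to 98 CPM over those of 67NR. Its log2 fold changes in 67NR were -0.19 (standard error 0.12) and -0.25 (standard error 0.12), which were not called, although no knockout library reached the WT range. Per kilobase of exon, *Sptlc1* made up 65.8% ± 7.91 (SD, n = 3) of the summed *Sptlc1*, *Sptlc2* and *Sptlc3* mRNA in 67NR WT cells, 50.4% ± 2.85 without *Kmt2c* and 54.3% ± 2.96 without *Kmt2d*. The range of the *Kmt2d* knockout (51.2 to 57%) met that of WT (56.7 to 71.3%), and the range of the *Kmt2c* knockout (47.1 to 52.1%) did not. *Sptlc3*, a further catalytic subunit, was at 0 in all libraries but 67NR WT replicate 2, which held 0.086 CPM.

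The ceramide synthases attach fatty acids of different length: *Cers2* prefers very long chains, and *Cers5* and *Cers6* prefer shorter ones such as palmitate. *Cers6* in 67NR was at 4.03, 5.34 and 4.44 CPM in the WT libraries, 12, 10.7 and 13 CPM after loss of *Kmt2c* and 11.8, 9.77 and 8.61 CPM after loss of *Kmt2d*. No knockout library overlapped WT, and the knockouts overlapped each other. *Cers6* rose by 1.37 (standard error 0.21, edgeR adjusted p = 0.000877) and 1.13 (standard error 0.20, edgeR adjusted p = 0.00413) on the log2 scale.

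In 168FARN, *Cers6* followed the replicate and not the genotype, at 4.11, 5.54 and 17.8 CPM in the WT libraries, 3.8, 3.81 and 19.3 CPM after loss of *Kmt2c* and 5.37, 4.95 and 24.8 CPM after loss of *Kmt2d*. Replicate 3 was higher than the mean of the others by 1.78 to 2.20 on the log2 scale over the 3 groups, with the same small constant added to both as for *Cerk*. The fold changes of the knockouts were -0.03 and 0.36 on the log2 scale, with standard errors of 0.93, and -0.33 and 0.11 without replicate 3, and none was called. Leaving out single libraries moved them from -1.26 to 0.92 for *Kmt2c* and from -0.82 to 1.28 for *Kmt2d*, so no direction can be read.

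*Cers2* was the most abundant synthase per kilobase and *Cers5* the next. In 67NR, *Cers2* was at 468, 462 and 260.2 CPM in the WT libraries, 431, 411 and 391 CPM after loss of *Kmt2c* and 576, 538 and 361 CPM after loss of *Kmt2d*, so that the groups overlapped and WT replicate 3 was the lowest library. *Cers5* spanned 43.9 to 69.5 CPM in WT and 48 to 61.7 CPM in the knockouts of that line. Neither was called in any comparison of a knockout with WT, and their log2 fold changes lay between -0.19 and 0.31. Per kilobase of exon, *Cers2* was 75.7 to 81.9% of all ceramide synthase mRNA by group mean, *Cers5* 16.2 to 21.6% and *Cers6* 0.453 to 1.07%. The called rise of *Cers6* in 67NR went with a share of 0.453% ± 0.147 in WT, 1.07% ± 0.148 without *Kmt2c* and 0.796% ± 0.0888 without *Kmt2d* (SD, n = 3).

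The sphingosine kinases make sphingosine-1-phosphate. *Sphk1* in 67NR was at 42.5, 34.1 and 24.9 CPM in the WT libraries, 48, 45.6 and 59.3 CPM after loss of *Kmt2c* and 53.3, 62.2 and 59.6 CPM after loss of *Kmt2d*. All 6 knockout libraries exceeded the WT libraries. Without *Kmt2d* it rose by 0.79 on the log2 scale (standard error 0.21, edgeR adjusted p = 0.0245), and without replicate 3 the change was 0.58 and under the fold threshold. Without *Kmt2c* the change was 0.59 (standard error 0.21, edgeR adjusted p = 0.0533), just under the same threshold, and 0.28 without replicate 3. It passed at 0.78 without WT replicate 1 and at 0.65 without *Kmt2c* KO replicate 2.

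In 168FARN, *Sphk1* was at 21, 21.5 and 7.11 CPM in the WT libraries, 23.3, 23.7 and 4.22 CPM after loss of *Kmt2c* and 18, 21.1 and 5.89 CPM after loss of *Kmt2d*, and the groups overlapped. Replicate 3 was lower than the mean of the others by 1.52 to 2.35 on the log2 scale, with the same small constant added to both. *Sphk2*, the isoform found largely in the nucleus and mitochondria, stayed at 13.2 to 24.7 CPM in 168FARN and 9.92 to 17.1 CPM in 67NR, and was not called in any comparison. Its log2 fold changes against WT reached at most 0.22 (standard error 0.25). The share of *Sphk1* in sphingosine kinase mRNA, per kilobase of exon, was 70.1% ± 2.64 (SD, n = 3) in 67NR WT and 80.5% ± 3.14 without *Kmt2d*, which did not overlap. Without *Kmt2c* it was 76.4% ± 5.49, and its range of 71 to 81.9% met the WT range of 67.1 to 72.2%.

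*Sgpp1* encodes the phosphatase that returns sphingosine-1-phosphate to sphingosine. In 67NR it was at 96.7, 103 and 90.3 CPM in the WT libraries, 172, 209 and 226 CPM after loss of *Kmt2c* and 228, 216 and 194 CPM after loss of *Kmt2d*. The WT range was clear of both knockouts, and the knockouts overlapped. *Sgpp1* rose by 1.07 (standard error 0.15, edgeR adjusted p = 0.000567) and 1.14 (standard error 0.15, edgeR adjusted p = 0.000672) on the log2 scale. In 168FARN *Sgpp1* was at 168, 137 and 179.6 CPM in the WT libraries, 111, 129 and 181 CPM after loss of *Kmt2c* and 157, 114 and 187 CPM after loss of *Kmt2d*, with overlap and log2 fold changes of -0.20 and -0.08 (standard error 0.25 each).

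*Sgpl1*, the lyase that breaks sphingosine-1-phosphate down for good, was at 118, 118 and 86.6 CPM in the WT libraries, 159, 149 and 111 CPM after loss of *Kmt2c* and 137, 137 and 102 CPM after loss of *Kmt2d* in 67NR. Within each replicate number the knockouts were higher than WT, and the groups overlapped across replicates. The log2 fold change was 0.38 (standard error 0.20, edgeR adjusted p = 0.192) for *Kmt2c* and 0.22 (standard error 0.20) for *Kmt2d*. With the replicate block, the first had an adjusted p of 0.0116 by edgeR, and its size stayed under the fold threshold. In 168FARN *Sgpl1* lay at 108 to 159 CPM.

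**Figure D3:**
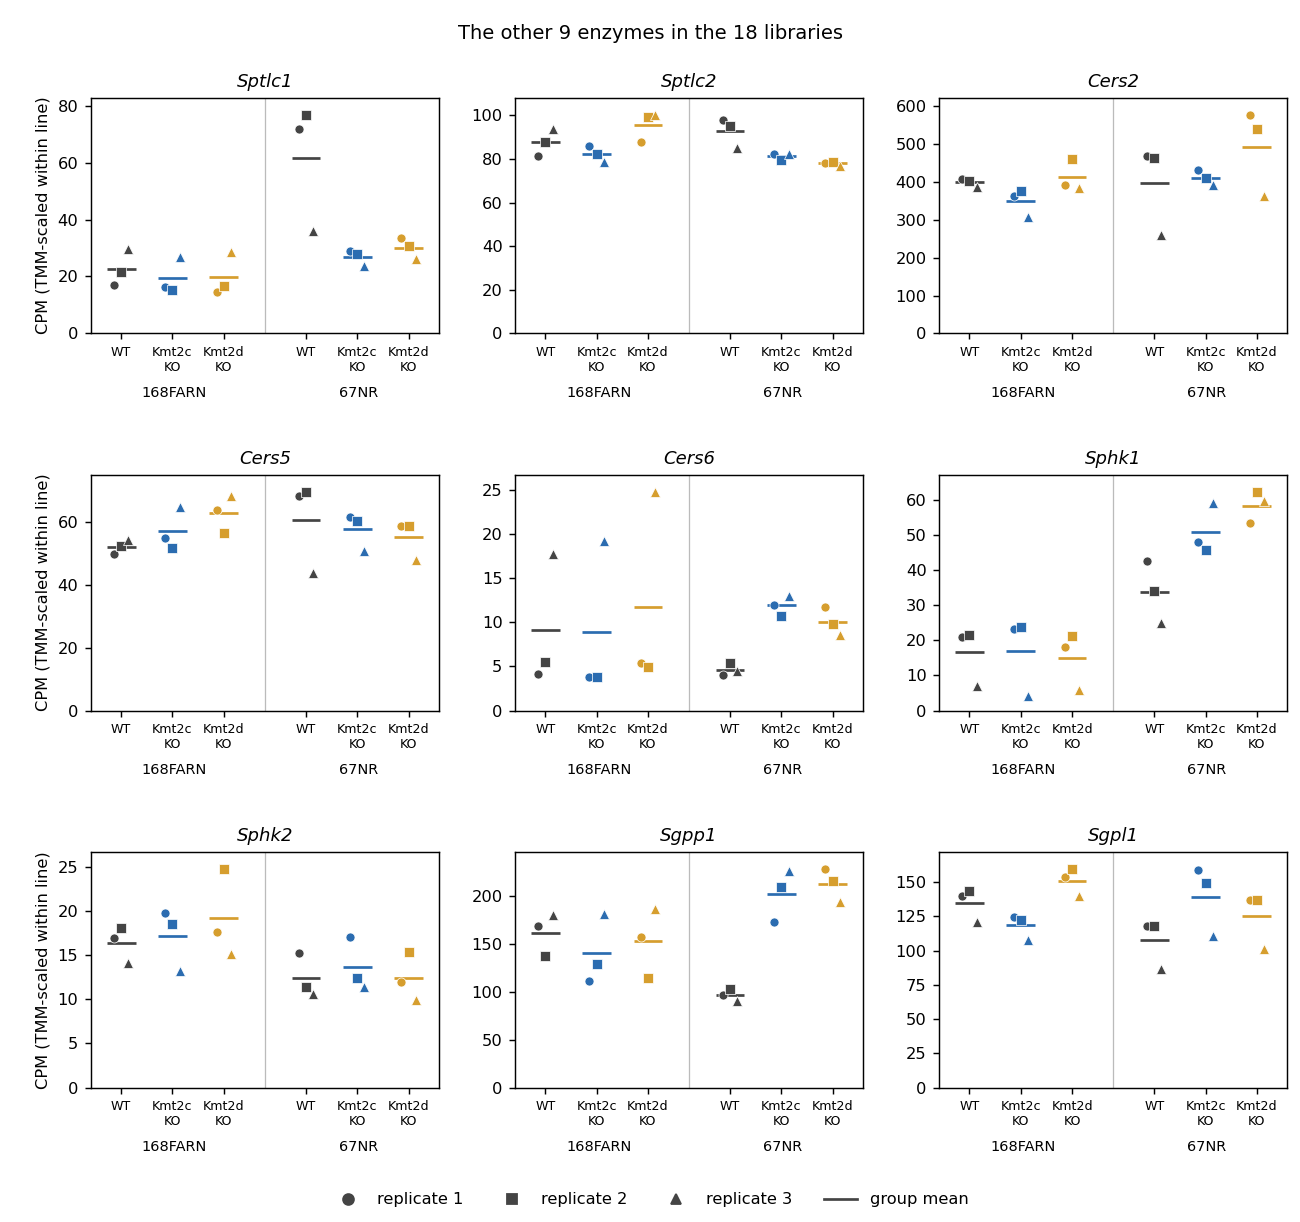
CPM of the 9 tested enzymes in each of the 18 libraries, with TMM scaling within each line and each y axis from 0. Points are libraries with the marker giving the replicate number and lines are group means. *Sgpp1*, *Cers6* and *Sptlc1* separate WT from both knockouts in 67NR, and *Cers6* and *Sphk1* separate replicate 3 from the others in 168FARN.

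The knockouts of a line did not differ from each other in any of the 9 enzymes by the call rule, with 1 at an unadjusted p under 0.05 in 168FARN and 0 in 67NR, and 0 called by DESeq2. Such a p was found for 616 of all 12253 genes in 168FARN and 1494 of 13662 in 67NR. Of all genes, 0.253% were called between the knockouts in 168FARN and 1.41% in 67NR. The nearest was *Sgpl1* in 168FARN, lower after loss of *Kmt2c* than of *Kmt2d* by 0.35 on the log2 scale (standard error 0.14, edgeR adjusted p = 0.938, and 0.0454 with the replicate block), with no overlap of the libraries. In 67NR the log2 differences of the 9 ran from -0.26 for *Cers2* to 0.25 for *Cers6*, with standard errors of 0.25 and 0.20. *Cerk* differed by -0.29 (standard error 0.44) in 168FARN and -0.36 (standard error 0.26) in 67NR.

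Whether a knockout acted differently in the lines was tested as an interaction on all 18 libraries. *Sgpp1* was the only called gene of the 9, with a response higher in 67NR by 1.19 on the log2 scale for *Kmt2c* (standard error 0.30, edgeR adjusted p = 0.0155) and 1.16 for *Kmt2d* (standard error 0.30, edgeR adjusted p = 0.0258). Over all genes, 16% and 10.6% were called. *Cers6*, *Sphk1* and *Sptlc1* were not called here (edgeR adjusted p from 0.166 to 0.822), which does not show that they responded alike. With a replicate block, 4 of the 9 were called for each knockout, against 34.6% and 28.4% of all genes. The added calls for *Kmt2c* and *Kmt2d* were *Cers6* at 1.46 and 0.82, *Sphk1* at 0.63 and 0.91 and *Sptlc1* at -0.99 and -0.83 on the log2 scale. With replicates 1 and 2 only, 3 were called for *Kmt2c* and 4 for *Kmt2d*, against 38% and 32.5% of all genes. For *Cerk*, chosen for this difference, the value was -5.55 (standard error 0.56) and -5.46 (standard error 0.56).

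Before any knockout, the lines already differed in some enzymes. *Sptlc1* was higher in 67NR WT than in 168FARN WT cells by 1.43 on the log2 scale (standard error 0.33, edgeR adjusted p = 0.00268), and *Sgpp1* was lower, at -0.75 (standard error 0.21, edgeR adjusted p = 0.0109). The other 7 were not called, and 39.2% of all genes were. *Sphk1* was at 1.02 (standard error 0.56, edgeR adjusted p = 0.169), and without replicate 3 it was called at 0.81. The 67NR WT libraries enter both this comparison and those with the 67NR knockouts, and line and count table cannot be told apart.

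Markers of cell state moved with the 67NR results. The summed level of 10 epithelial markers was 2796 to 4208 CPM in 67NR WT, 639 to 885 CPM without *Kmt2c* and 1129 to 1749 CPM without *Kmt2d*, with 10 and 8 of the 10 called lower and none at 0. Of 10 mesenchymal markers, 8 were called higher and 1 lower in each 67NR knockout, with summed levels of 3552 to 6289 CPM in WT and 4823 to 7359 CPM in the knockouts. In 168FARN the epithelial sum was 99.7 to 392 CPM, with *Epcam*, *Cldn3*, *Cldn4* and *Cldn7* at 0 in all 9 libraries. Nearly all of that sum was *Krt8*, at 97.5 to 390 CPM and highest in replicate 3 of each group. The part of this shift in the values of *Cerk*, *Sgpp1*, *Cers6*, *Sptlc1* and *Sphk1* was not tested. Leukocyte markers (6) summed to at most 4.7 CPM and endothelial markers (4) to at most 5.21 CPM in any library. Within those low sums, *Cdh5*, an endothelial cadherin, was called higher in 168FARN after loss of *Kmt2c* (log2 2.61) and in both 67NR knockouts (2.60 and 1.75). In 168FARN without *Kmt2d* it lay below WT with no overlap (log2 -0.95), and was not called. *Lyz2*, a myeloid lysozyme, was called higher in both 67NR knockouts (2.81 and 3.06). In 168FARN without *Kmt2c* it lay below WT with no overlap (log2 -1.24). That fall was called with the replicate block and with replicates 1 and 2 only, and not in the main fit. The other leukocyte marker tested in 67NR, *Csf1r*, went the opposite way to *Lyz2* in that line. It was called lower after loss of *Kmt2d*, and after loss of *Kmt2c* with the replicate block. *Csf1r* was at 0.162, 0.344 and 3.6 CPM in 67NR WT and at 0.103 CPM or less without *Kmt2d*. *Cdh5* reached 4.82 CPM and *Lyz2* 4.14 CPM at most, and the part of these 3 genes in the enzymes' values was not tested.

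Around these enzymes, 58 further genes of sphingolipid metabolism were read, of which 43 were tested in 168FARN and 46 in 67NR. In 168FARN 0 were called in either knockout by edgeR. An unadjusted p under 0.05 was found for 3 of the 43 in each, and for 725 (*Kmt2c*) and 647 (*Kmt2d*) of all 12253 genes. DESeq2 called 2 in each, against 2.35% and 2.02% of all genes. With the replicate block 5 were called in each, against the 7.23% and 5.9% given above. In 67NR 11 were higher and 10 lower after loss of *Kmt2c*, where 17.9% of all genes were called higher and 17.4% lower. After loss of *Kmt2d* 11 were higher and 5 lower, where 13.9% and 11.6% of all genes were. Their median log2 fold changes in 67NR were -0.10 and 0.05.

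At the entry of the pathway, *Sptssa*, the small subunit that activates serine palmitoyltransferase, was at 55.9, 60.3 and 87.4 CPM in the WT libraries, 141, 209 and 191 CPM after loss of *Kmt2c* and 164, 166 and 190.5 CPM after loss of *Kmt2d* in 67NR. It rose by 1.41 and 1.35 on the log2 scale (edgeR adjusted p = 0.00104 and 0.00215), opposite in direction to *Sptlc1*. *Cers4*, a further ceramide synthase, was at 0.765, 0.53 and 0.946 CPM in the WT libraries, 5.28, 5.19 and 7.55 CPM after loss of *Kmt2c* and 4.64, 3.56 and 7.87 CPM after loss of *Kmt2d* in 67NR, and rose by 3.01 and 2.84 (edgeR adjusted p = 0.000372 and 0.000852). In 168FARN loss of *Kmt2c* also left *Cers4* above WT in every library, at 8.45, 10.2 and 3.9 CPM against 2.49, 3.63 and 2.76, called with the block (log2 1.24, edgeR adjusted p = 0.00902) or with replicates 1 and 2 only. *Degs1*, the desaturase that completes ceramide, was not called in any comparison of a knockout with WT.

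Ceramide leaves for sphingomyelin through the transfer protein *Cert1* and the sphingomyelin synthases. *Cert1* fell in 67NR after loss of *Kmt2c* by 0.92 on the log2 scale (standard error 0.18, edgeR adjusted p = 0.00384) and stood at -0.56 after loss of *Kmt2d*, under the fold threshold, which it passed with replicates 1 and 2 only (-0.65). *Sgms2*, the synthase of the plasma membrane, rose by 0.84 and 0.64 (edgeR adjusted p = 0.0115 and 0.052), the second a call that 3 of 6 fits without 1 library lost, as did the fit with replicates 1 and 2 only (0.52). In 168FARN *Sgms2* was at 122, 123 and 200.4 CPM in the WT libraries, 64.6, 79.1 and 215 CPM after loss of *Kmt2c* and 72.7, 68 and 175 CPM after loss of *Kmt2d*, lower than WT in both knockouts in replicates 1 and 2. The log2 fold changes there were -0.31 and -0.49 and not called. With the block *Kmt2d* was called at -0.61, and with replicates 1 and 2 only both were, at -0.76 and -0.79. *Sgms1*, the synthase of the Golgi, was not called in 67NR, at 0.28 and 0.49. For the way to glycosphingolipids, *Ugcg*, which makes glucosylceramide, was at -0.21 and 0.14 and not called. *B4galt6*, which makes lactosylceramide, fell by 1.16 and 1.09 (edgeR adjusted p = 0.00457 and 0.00944), and *B4galnt1*, a ganglioside synthase, by 0.88 and 0.82 (edgeR adjusted p = 0.00988 and 0.0198).

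Among the list genes picked by the naming rule given below, the widest called change was in breakdown. *A4galt*, a glycosphingolipid gene outside that rule, moved widely at low levels in 67NR. It was at 0.315 CPM or less in WT, 0.508 to 6.11 CPM after loss of *Kmt2c* and 1.05 to 5.77 CPM after loss of *Kmt2d*. In 168FARN it was above WT in replicates 1 and 2 of both knockouts, and at 0.037 CPM or less in replicate 3 of every group. *Hexa*, the alpha subunit of lysosomal hexosaminidase that degrades GM2 ganglioside, was at 3.67, 3.17 and 2.14 CPM in the WT libraries, 76.9, 67.5 and 67.8 CPM after loss of *Kmt2c* and 55.9, 51.6 and 46.1 CPM after loss of *Kmt2d* in 67NR. The gap exceeded the spread of every group, with log2 fold changes of 4.56 (standard error 0.23, edgeR adjusted p = 2.9e-06) and 4.09 (standard error 0.22, edgeR adjusted p = 7.52e-06). In 168FARN *Hexa* was at 64.6 to 186 CPM, and the groups overlapped. *Arsa*, the lysosomal arylsulfatase that degrades sulfatide, rose in 67NR by 1.61 and 0.98 (edgeR adjusted p = 0.000407 and 0.00885). Of the ceramidases, *Asah1* fell after loss of *Kmt2c* by 0.77 (edgeR adjusted p = 0.0826, with overlapping libraries, a call that 5 of 6 fits without 1 library lost). *Acer3* was not called, and *Acer2* was at 0.18 CPM or less in all libraries.

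**Figure D4:**
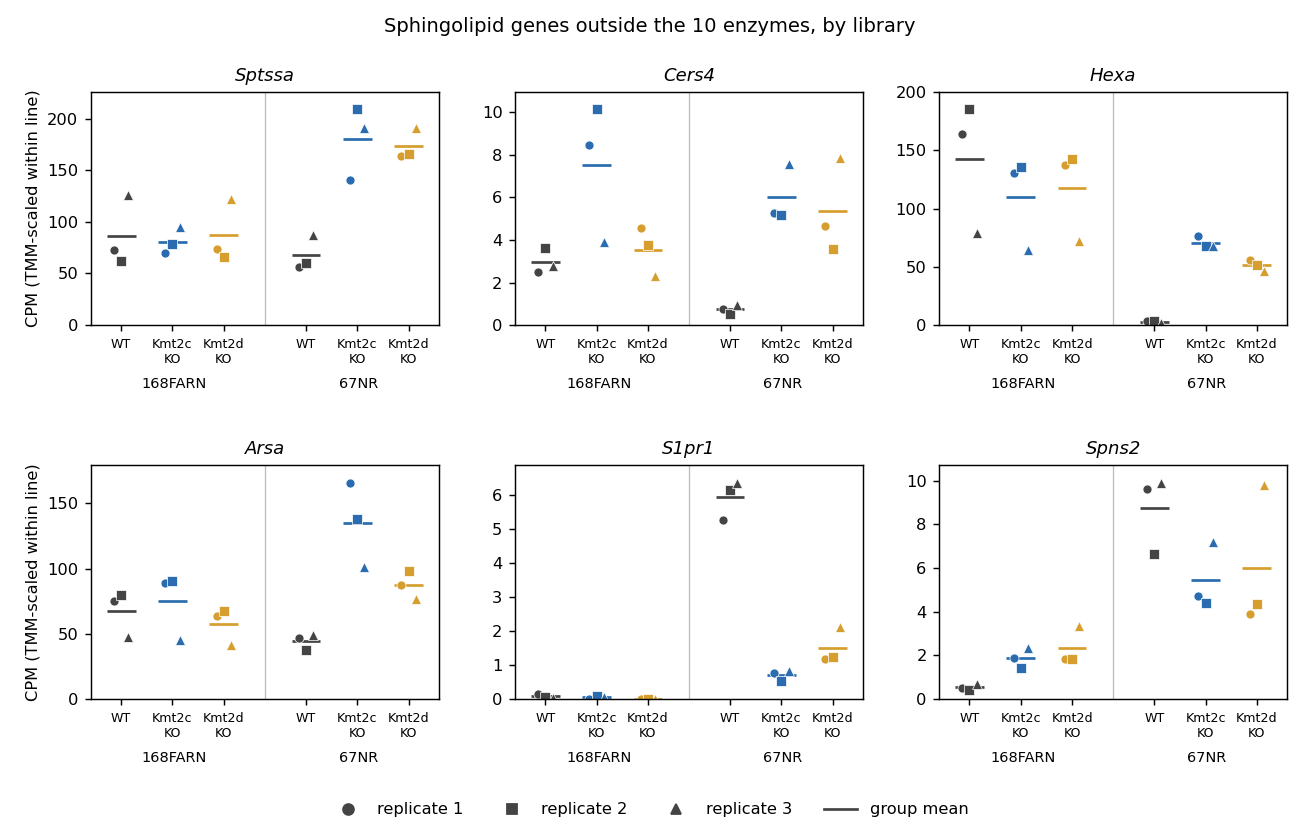
CPM of *Sptssa*, *Cers4*, *Hexa*, *Arsa*, *S1pr1* and *Spns2* in each of the 18 libraries, with TMM scaling within each line and each y axis from 0. Points are libraries and lines group means. *Hexa* is at 2.14 to 3.67 CPM in 67NR WT and at 46.1 CPM or more in the 67NR knockouts, and *Spns2* is above WT in every 168FARN knockout library.

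On the receiving side of sphingosine-1-phosphate, *S1pr1*, a receptor that drives migration, was at 5.27, 6.16 and 6.37 CPM in the WT libraries, 0.761, 0.523 and 0.823 CPM after loss of *Kmt2c* and 1.16, 1.23 and 2.13 CPM after loss of *Kmt2d* in 67NR. It fell by 3.08 and 1.98 on the log2 scale (edgeR adjusted p = 0.000164 and 0.00265), and was at 0.133 CPM or less in all 168FARN libraries. *S1pr2*, a receptor known for restraining migration, rose in 67NR by 1.31 and 0.81 (edgeR adjusted p = 0.0104 and 0.0942), of which 4 of 6 fits without 1 library lost the second. *S1pr3* had no reads in any library.

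*Spns2*, the exporter of sphingosine-1-phosphate, was at 0.497, 0.387 and 0.697 CPM in the WT libraries, 1.85, 1.43 and 2.35 CPM after loss of *Kmt2c* and 1.82, 1.84 and 3.33 CPM after loss of *Kmt2d* in 168FARN. WT did not overlap either knockout, and the log2 fold changes of 1.82 and 2.13 were not called (edgeR adjusted p = 0.286 and 0.156). Both were called with the block (edgeR adjusted p = 0.00333 and 0.00154) and with replicates 1 and 2 only (0.00407 and 0.00486). In 67NR it was at 9.62, 6.65 and 9.91 CPM in the WT libraries, 4.7, 4.41 and 7.19 CPM after loss of *Kmt2c* and 3.88, 4.37 and 9.79 CPM after loss of *Kmt2d*, with overlap and log2 fold changes of -0.68 and -0.54, called with the block, at -0.72 and -0.64, and with replicates 1 and 2 only, at -0.84 and -0.99. The difference between the lines was called for both knockouts, at -2.58 and -2.73 on the log2 scale (edgeR adjusted p = 0.00747 and 0.00774). Next to ceramide-1-phosphate itself, its transfer protein *Cptp* and its target *Pla2g4a*, the cytosolic phospholipase A2, were not called in any knockout. *Cptp* in 67NR without *Kmt2d* was at -0.65, and called with the block (-0.62, edgeR adjusted p = 0.0266) and with replicates 1 and 2 only (-0.77).

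**Figure D5:**
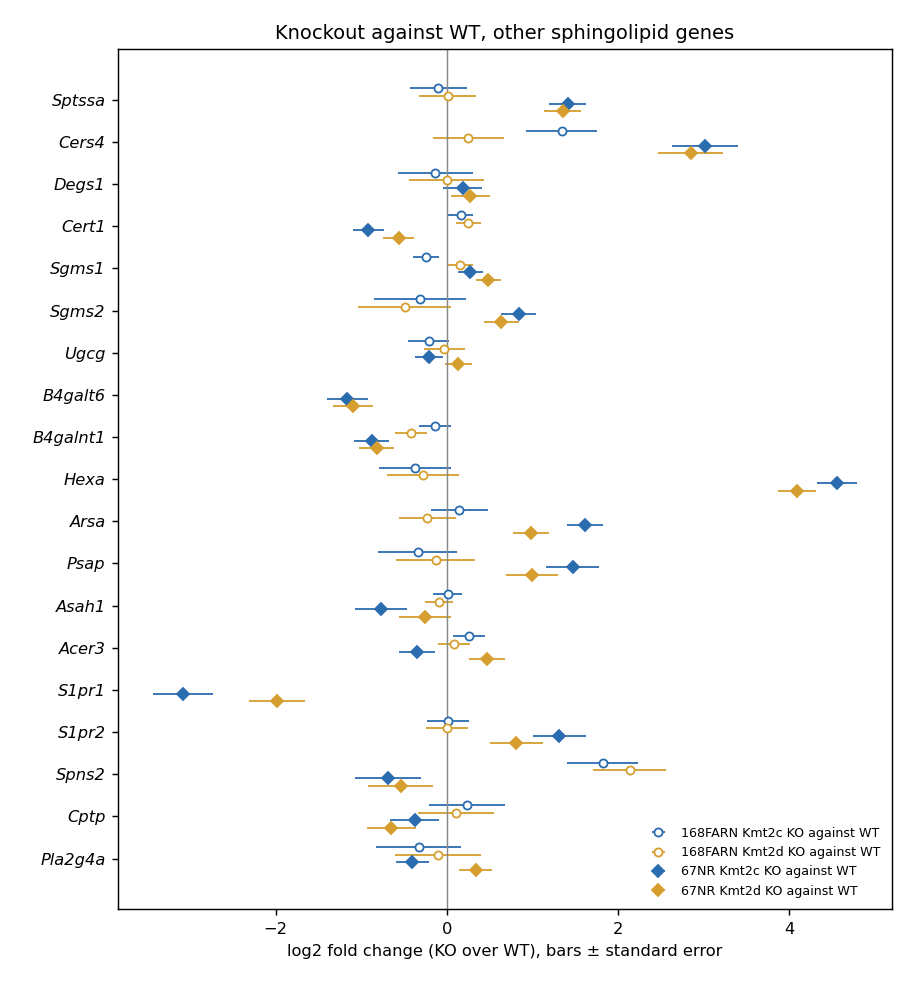
Log2 fold changes (x axis, knockout over WT) with standard errors of further sphingolipid genes, ordered from synthesis at the top through breakdown to receptors and ceramide-1-phosphate genes. Open circles are 168FARN and filled diamonds 67NR, blue is *Kmt2c* KO and gold *Kmt2d* KO. Genes with too few reads in 168FARN were not tested there, and *Hexa* at 4.56 and 4.09 and *S1pr1* at -3.08 and -1.98 in 67NR mark the ends of the range.

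The genes whose levels ran most like those of *Cerk* were ranked by Pearson's r of log2 CPM over the 18 libraries, after subtracting the mean of each line, among 13872 genes. The highest were *4930523C07Rik* and *Arhgap6* (r = 0.93 each), *Kdelr3* (0.92), *Pdzrn3* and *A630001G21Rik* (0.91 each). *Pdzrn3*, an E3 ubiquitin ligase, had means of 3.89, 15.1 and 31.5 CPM in 168FARN (WT, then loss of *Kmt2c*, then of *Kmt2d*) and 63.5, 17.5 and 18.7 CPM in 67NR. The most opposite were *Ptar1* (r = -0.96), *Brinp3* (-0.92) and *Serpinb2* (-0.91). *Ptar1* had means of 19.3, 3.29 and 2.99 CPM in 168FARN and 1.29, 3.97 and 4.13 CPM in 67NR, in the same order. Among the other 9 enzymes r ran from -0.65 for *Sgpp1* to 0.41 for *Cers5*. The libraries share their genotype and replicate number, so these are descriptions.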

How the data were processed

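RNA was sequenced from 168FARN and 67NR cells, WT or without *Kmt2c* or *Kmt2d*, 3 libraries a group. Libraries were prepared with a strand-specific mRNA kit and aligned to mm9 with STAR (VIPER pipeline), and the authors deposited raw read counts per gene symbol, 1 table per line; the strand setting, annotation and STAR version are not given in the sources used here. Columns of samples outside the labels numbered 0. The symbols that repeat within the 67NR table (2) were left out.

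Counts were tested with edgeR 4.0.16 (R 4.3.3): TMM scaling, filterByExpr, robust quasi-likelihood fits with genotype as the only factor, on the 9 libraries of a line, or on all 18 for differences between lines, with Benjamini-Hochberg adjustment over all genes. A call needed a log2 fold change over 0.6 in size with adjusted p under 0.1. The standard error of a log2 fold change is its size over the root of the F statistic. Levels per kilobase use the union of exons in the mm9 annotation. Scripts were tested on simulated data.

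Pairing by replicate number was examined: between same-numbered libraries, deviations from group means correlated at 0.65 to 0.90 (168FARN) and 0.35 to 0.72 (67NR). Replicate 3 ran against the others (-0.82 to -0.42), while replicates 1 and 2 also correlated with each other (0.62 to 0.73 and 0.28 to 0.52). The numbers therefore set replicate 3 apart, and a pairing within replicates 1 and 2 is not shown. The block is an alternative because the study's methods name genotype alone. The members and lists were chosen with earlier results of these data known. Named are the 10 enzymes and, of 58 further genes, the called ones of smallest p (3 a direction) in each comparison with WT and 13 set by name. The 5 genes most like *Cerk*, the 3 most opposite, its protein-coding neighbours within 250000 bases and the targets are also named. *A4galt*, the rest of those pictured, and *Psap* and other genes named only in the closing part were added after their values were seen. Alternatives were DESeq2 (1.42.0) or its size factors, no filter, an adjusted p under 0.05 with no fold threshold, the replicate block, the 6 libraries compared only, each library left out and, chosen after seeing the data, replicates 1 and 2 only. Upstream sequences came from RefSeq (GRCm38.p6), with all 10 genes matched.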

Additional observations from a re-analysis of the deposited data

Results flagged for a closer look

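Some knockout effects differed between the lines by the test of the difference itself, edgeR's interaction of line and knockout on all 18 libraries, given here as the log2 effect in 67NR minus that in 168FARN. For *Kmt2c* these were *Hexa* at 4.85, *Psap* (the saposin precursor) at 1.73, *Cers4* at 1.59, *Sptssa* at 1.43, *Arsa* at 1.38, *S1pr2* at 1.22 and *Sgpp1* at 1.19. Effects lower in 67NR were *Spns2* at -2.58, *Gla* (alpha-galactosidase) at -1.51, *Cert1* at -1.16 and *B4galnt1* at -0.82. For *Kmt2d* the values were 4.32 for *Hexa*, 2.54 for *Cers4*, 1.28 for *Sptssa* and 1.16 for *Sgpp1*, and -2.73 for *Spns2*, -0.96 for *Gla* and -0.88 for *Cert1*. *Ugt8a*, which makes galactosylceramide, had 6.66 for *Kmt2d* at 0.513 CPM or less in all libraries, a fitted value that depends on the prior count and gives no bound. Of the 12 fits without 1 library, some lost the call for *Kmt2c* in *Cers4* (9 of 12), *B4galnt1* (8 of 12), *Psap* (6 of 12) and *S1pr2* (5 of 12), and for *Kmt2d* in *Sptssa* (7 of 12), *Ugt8a* (7 of 12), *Gla* (6 of 12) and *Cert1* (2 of 12). The others named here lost it in none of the 12. Besides *Sgpp1*, 10 of the 46 further genes tested were called for *Kmt2c* and 7 of 46 for *Kmt2d*. Of all genes 16% and 10.6% were called, so these numbers are not far from that background. The effects of both knockouts share the WT libraries of each line, and line and count table cannot be told apart.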

How the results depend on the processing

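Numbers of the 9 tested enzymes called stayed at 0 in 168FARN and between the knockouts of a line, at 3 to 4 in 67NR *Kmt2c* KO and *Kmt2d* KO cells and at 2 to 3 between WT lines, over all alternatives run. The differences between lines gave 1 call each, 4 each with the replicate block, and 3 (*Kmt2c*) and 4 (*Kmt2d*) with replicates 1 and 2 only. Leaving out single libraries gave 1 to 2, with 2 for *Kmt2c* without 168FARN *Kmt2c* KO replicate 3, 67NR WT replicate 3 or 67NR *Kmt2c* KO replicate 3, and for *Kmt2d* without 67NR WT replicate 3. Of the 58 further genes, 0 were called in each 168FARN knockout, 5 in each with the replicate block, 2 in each by DESeq2 and 6 in each with replicates 1 and 2 only; of all genes, 0.359% and 0.286% (*Kmt2c*, *Kmt2d*) were called, 7.23% and 5.9% with the block, 2.35% and 2.02% by DESeq2 and 14.5% and 11% with replicates 1 and 2. In 67NR *Kmt2d* KO cells 16 became 9 to 16 without single libraries (10 without *Kmt2d* KO replicate 1 or WT replicate 2, 9 without *Kmt2d* KO replicate 2), and 21 in *Kmt2c* KO cells became 17 to 22. *Cerk* kept its sign, at 2.94 to 3.47 and 3.23 to 3.81 in 168FARN and -2.43 to -2.09 and -2.02 to -1.77 in 67NR for *Kmt2c* and *Kmt2d*. It was chosen for these directions, so the kept signs are a description and no support for them. No called value changed direction, while the uncalled log2 fold changes of *Cers6* in 168FARN took either sign without single libraries. Low counts limit *Cerk* in 168FARN WT, *Cers4* in 67NR WT and *S1pr1*. The causes of these shifts were not tested.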
